A study of Saccharomyces cerevisiae with 6 samples.

Results

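Glycine tRNAs are represented by 4 of the 70 tRNA sequences counted in this series, chosen because their identifiers name glycine: tRNA-Gly(GCC) (TRNA-GLY-GCC-1-1), tRNA-Gly(UCC) (TRNA-GLY-TCC-1-1) and a pair of tRNA-Gly(CCC) sequences (TRNA-GLY-CCC-1-1 and TRNA-GLY-CCC-2-1, called tRNA-Gly(CCC)-1 and tRNA-Gly(CCC)-2). All 4 were counted in all 6 libraries and passed the filter on low counts. The libraries came from *Saccharomyces cerevisiae* wild type (strain DAS217), *rtf1∆* (strain DAS549) and *paf1∆* (strain DAS516) cells, 2 libraries each, grown in rich YEP medium with 2% dextrose at 30 °C to an A600 of 0.6 to 0.8. The strain list of the study gives both deletions as replaced by the *HIS3* marker and does not hold DAS217, so a difference in background genotype between the wild type and the deletion strains cannot be told apart from the deletion. In tRNA-HySeq, the method used, gel-purified tRNA is broken by mild alkaline hydrolysis and fragments of 19 to 35 nt are sequenced and counted per tRNA sequence.

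Glycine is read through a box of 4 codons that differ in their last base. In yeast, tRNA-Gly(GCC) reads GGU and GGC, and tRNA-Gly(CCC) reads GGG. tRNA-Gly(UCC) reads GGA with a modified uridine at the wobble position, whose side chain depends on the Elongator complex. Several yeast glycine tRNA genes carry *SUF* names because they can mutate to suppressors of frameshift mutations. tRNA genes are transcribed by RNA polymerase III (pol III) from promoter elements inside the gene, the A and B boxes, which TFIIIC binds. Paf1 and Rtf1 are subunits of the Paf1 complex, an elongation factor of RNA polymerase II that the study examined on pol III-transcribed genes, and the comparisons ask how tRNA levels differ in cells lacking either subunit.

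The yeast reference genome R64 annotates 21 nuclear glycine tRNA genes among 275 nuclear tRNA genes, on 11 chromosomes, none with an intron. They hold 4 different sequences, of the 70 different sequences among all nuclear tRNA genes, which are the same numbers as those of the counted sequences. The sequences are shown because the anticodon sets which codons a tRNA reads and because their likeness sets how far reads can be told apart. The gene sequence is written 5′ to 3′ as DNA with the anticodon in capitals.
tRNA-Gly(GCC), 16 genes: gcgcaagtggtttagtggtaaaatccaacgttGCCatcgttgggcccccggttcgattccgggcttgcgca
tRNA-Gly(UCC), 3 genes: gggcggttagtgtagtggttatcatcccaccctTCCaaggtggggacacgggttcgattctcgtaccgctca
tRNA-Gly(CCC), *SUF3*: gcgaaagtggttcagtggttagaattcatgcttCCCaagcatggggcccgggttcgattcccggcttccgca
tRNA-Gly(CCC), *SUF5*: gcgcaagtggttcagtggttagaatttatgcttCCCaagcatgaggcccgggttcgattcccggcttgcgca

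The 16 tRNA-Gly(GCC) genes lie on 10 chromosomes, and an example is YNCB0005C at chrII:197629-197699 on the minus strand of R64. *SUF16*, *SUF17*, *SUF20* and *SUF23* belong to this group. The tRNA-Gly(UCC) genes are *SUF1*, *SUF4* and *SUF6*, of which *SUF4* lies at chrVII:779616-779687 on the plus strand. *SUF3* lies at chrIV:1257008-1257079 and *SUF5* at chrXV:594354-594425, both on the minus strand and each the only gene of its sequence. 1 of the 21 genes, YNCP0023W for tRNA-Gly(GCC), overlaps an annotated protein-coding gene, YPR159C-A. The mitochondrial tRNA-Gly gene is not among the counted sequences.

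*SUF3* and *SUF5* share 68 of 72 positions (94.4%). Counted from 1 at the 5′ end of the gene, with the base of *SUF3* first, they differ by A4C, C27T, G44A and C68G. When the acceptor stem is folded as 7 base pairs, counting a G opposite a U as a pair, positions 4 and 68 face each other, so *SUF3* has A4 opposite C68 and pairs at 6 of 7 positions, whereas *SUF5* and the other glycine sequences pair at all 7. tRNA-Gly(GCC) is identical to either tRNA-Gly(CCC) sequence at 76.4% of aligned positions, and tRNA-Gly(UCC) is identical to each of the other 3 at 66.7%. Both tRNA-Gly(CCC) genes are 72 nt long and the sources used here do not say which counted sequence is which, so tRNA-Gly(CCC)-1 and tRNA-Gly(CCC)-2 were not assigned to *SUF3* or *SUF5*.

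The likeness of the tRNA-Gly(CCC) sequences limits what the split between them means. Of the 54 windows of 19 nt in either sequence, 9 (16.7%) occur without change in the other, and 52 (96.3%) occur there when 1 mismatch is allowed. At 35 nt, the upper end of the fragment range, no window of 38 is shared exactly and 11 (28.9%) are shared with 1 mismatch. No window of 19 nt is shared exactly between tRNA-Gly(GCC) or tRNA-Gly(UCC) and any other tRNA, and with 1 mismatch 5 of 53 windows (9.43%) of tRNA-Gly(GCC) and none of tRNA-Gly(UCC) occur in another glycine tRNA. How the authors treated reads that match several sequences is not given in the sources used here, so the values of tRNA-Gly(CCC)-1 and tRNA-Gly(CCC)-2 are uncertain singly and firmer as a sum.

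Part of the B box was searched on the gene strand of each nuclear tRNA gene and on both strands of glycine genes, with N for any base. The core of the B box, written GTTCGANTC, was found in 21 of 21 glycine tRNA genes and in 111 of all 275 nuclear tRNA genes (40.4%). The letters TTCGANTCC, which overlap the core by all but its first base and add the last base of the box, were found in 18 of the 21 glycine genes and in 89 of 275 (32.4%). The 3 tRNA-Gly(UCC) genes were those without them. Neither was found on the other strand of a glycine gene. These are matches of letters within the genes.

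Reads aligned to the 70 tRNA sequences numbered from 519302 to 1435676 in the wild type and *rtf1∆* libraries, and 8259323 and 7906642 in the *paf1∆* libraries. These were 5.64% to 6.76% of the reads in the wild type and *rtf1∆* libraries and 87.9% and 87.4% in *paf1∆*. All 70 reference sequences were 3 nt longer in the *paf1∆* files than in the other 4 (74 nt in place of 71 nt for tRNA-Gly(GCC), 75 nt in place of 72 nt for the others). The *paf1∆* genotype and these differences in processing therefore cannot be told apart. Wild type library 1 is named as set 1, wild type library 2 and both *rtf1∆* libraries as set 2, and no set is named for *paf1∆*. Nothing states that libraries of a genotype came from separate cultures, so the p-values rest on the spread between these libraries, which may be technical. The tests share that spread among sequences, so a p-value need not reflect the spread of its own sequence. Intervals on shares are 95% Wilson intervals and cover counting error only.

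Glycine tRNAs were among the most abundant in the pool. They took 9.81% and 13.6% of aligned reads in wild type, 8.15% and 7.12% in *rtf1∆* and 7.88% and 3.91% in *paf1∆*. Among 22 amino acid groups glycine ranked 3 in 5 libraries and 9 in *paf1∆* library 2. Means were 11.7% ± 2.64 (SD, n = 2) in wild type, 7.64% ± 0.730 (SD, n = 2) in *rtf1∆* and 5.89% ± 2.81 (SD, n = 2) in *paf1∆*. By this measure both wild type libraries lay above all 4 deletion libraries, and *paf1∆* library 1 lay between the *rtf1∆* libraries. After the scaling between libraries described below, wild type library 1 lay under both *rtf1∆* libraries, at log2 levels of 16.17 against 16.37 and 16.32.

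tRNA-Gly(GCC) was the most abundant glycine tRNA in each of the 6 libraries. It took 6.59% and 6.75% of aligned reads in wild type, 6.07% and 5.42% in *rtf1∆* and 4.17% and 2.50% in *paf1∆*. By this share the wild type libraries were nearly equal and highest, and the *paf1∆* libraries were lowest and far apart. After the scaling between libraries described below, both *rtf1∆* libraries lay between the wild type libraries. The *paf1∆* libraries were still lowest but lay close together, with a gap of -0.099 on the log2 scale. It ranked 3 among 70 sequences in each wild type and *rtf1∆* library, and 4 and 9 in the *paf1∆* libraries.

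tRNA-Gly(UCC), the reader of GGA, was second among the glycine tRNAs in each library but the least even between replicates. It took 2.57% (95% interval 2.53 to 2.62) and 6.38% (6.34 to 6.42) of aligned reads in wild type, 1.80% and 1.42% in *rtf1∆* and 3.45% and 1.28% in *paf1∆*. The *rtf1∆* values lay below both wild type values, while the *paf1∆* values lay one above and one below wild type library 1. Its rank among the 70 sequences ran from 4 in wild type library 2 to 18 in *paf1∆* library 2.

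The tRNA-Gly(CCC) sequences, which read the least used glycine codon, were the least abundant glycine tRNAs. tRNA-Gly(CCC)-1 took 0.223% and 0.194% of aligned reads in wild type, 0.123% and 0.115% in *rtf1∆* and 0.148% and 0.0760% in *paf1∆*. tRNA-Gly(CCC)-2 took 0.423% and 0.231% in wild type, 0.165% and 0.164% in *rtf1∆* and 0.117% and 0.0468% in *paf1∆*. For both, each wild type library lay above each deletion library. tRNA-Gly(CCC)-1 ranked from 52 to 62 of 70 over the 6 libraries. tRNA-Gly(CCC)-2 ranked 42 and 48 in wild type, 53 and 52 in *rtf1∆* and 69 and 70 in *paf1∆*, so it was the least counted tRNA of *paf1∆* library 2, with 3702 reads. As a floor, 3 reads are at most 0.000578% of any library.

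**Figure D1:**
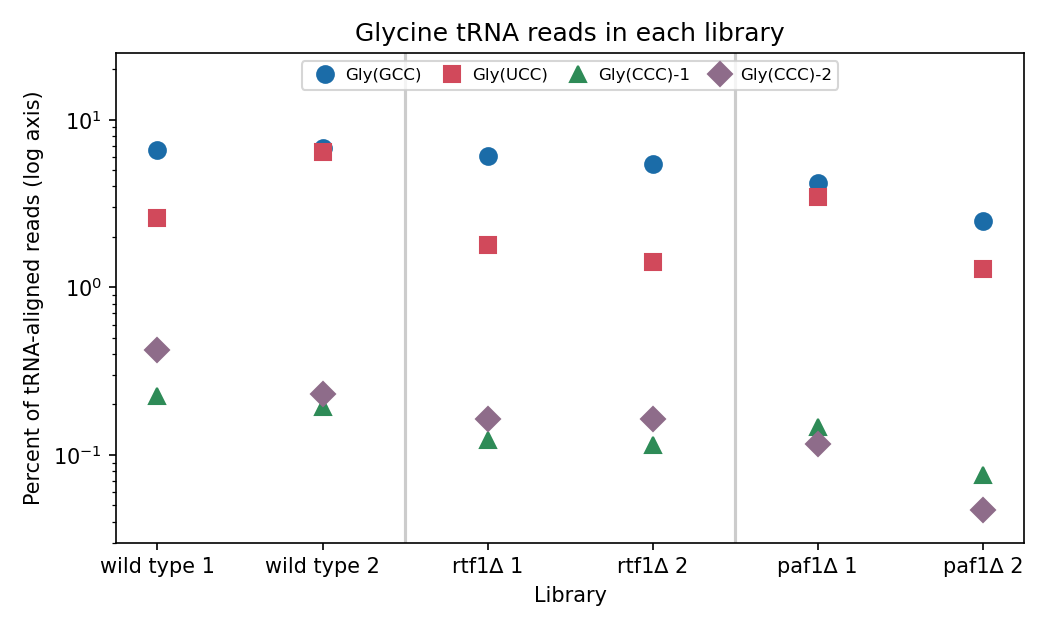
Percent of tRNA-aligned reads (log axis) on each glycine tRNA sequence in the 6 libraries, 1 point per sequence and library. tRNA-Gly(GCC) is highest in each library, tRNA-Gly(UCC) moves from 2.57% to 6.38% between the wild type libraries, and tRNA-Gly(CCC)-1 lies below tRNA-Gly(CCC)-2 except in *paf1∆*.

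Within glycine, tRNA-Gly(GCC) took 67.2% and 49.8% of the reads in wild type, 74.4% and 76.2% in *rtf1∆* and 52.9% and 63.99% in *paf1∆*. tRNA-Gly(UCC) took 26.2% and 47.1%, 22.0% and 19.9%, and 43.7% and 32.9% in the same order. For tRNA-Gly(CCC), both sequences summed, the shares were 6.59% and 3.14%, 3.53% and 3.92%, and 3.36% and 3.14%. In *rtf1∆* the tRNA-Gly(GCC) share was above and the tRNA-Gly(UCC) share below those of all other libraries, while the *paf1∆* shares of both lay between those of the wild type libraries. The mean tRNA-Gly(UCC) share was 36.7% ± 14.7 (SD, n = 2) in wild type, 21.0% ± 1.52 (SD, n = 2) in *rtf1∆* and 38.3% ± 7.69 (SD, n = 2) in *paf1∆*. Dividing reads by the length of each sequence moved no share by more than 0.350 percentage points.

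The anticodons had the same order in reads, GCC, UCC and then CCC, as in gene numbers, but other proportions. tRNA-Gly(GCC) has 76.2% of the nuclear glycine tRNA genes, tRNA-Gly(UCC) 14.3% and tRNA-Gly(CCC) 9.52%. The share of glycine reads on tRNA-Gly(UCC) was 1.39 to 3.29 times its share of genes, against 0.654 to 1.00 times for tRNA-Gly(GCC) and 0.3295 to 0.691 times for tRNA-Gly(CCC). Per gene, tRNA-Gly(UCC) had 0.858% and 2.13% of aligned reads in wild type, 0.599% and 0.472% in *rtf1∆* and 1.15% and 0.428% in *paf1∆*. Per tRNA-Gly(GCC) gene the values were 0.412% and 0.422%, 0.379% and 0.339%, and 0.261% and 0.156%. Each library thus had more tRNA-Gly(UCC) than tRNA-Gly(GCC) reads per gene. Read numbers of different tRNAs also depend on how each one is fragmented, ligated and reverse transcribed, which was not measured.

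The glycine codons of the genome have the same order. The 6008 annotated coding sequences of R64 hold 145512 glycine codons, 4.97% of all codons. GGU makes up 45.4% of them, GGC 19.7%, GGA 22.6% and GGG 12.2%, so 65.2% fall to tRNA-Gly(GCC) by the decoding given above. The tRNA-Gly(GCC) share of glycine reads was 0.764 to 1.17 times its share of codons and that of tRNA-Gly(UCC) 0.881 to 2.09 times. Each codon was counted for 1 anticodon only, so any reading of GGG by tRNA-Gly(UCC) was not allowed for. Counted so, tRNA-Gly(CCC) had 0.257 to 0.538 times its share of codons in reads, below 1 in all 6 libraries. These codon shares count every codon of the annotated sequences once, whatever the expression of the gene.

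**Figure D2:**
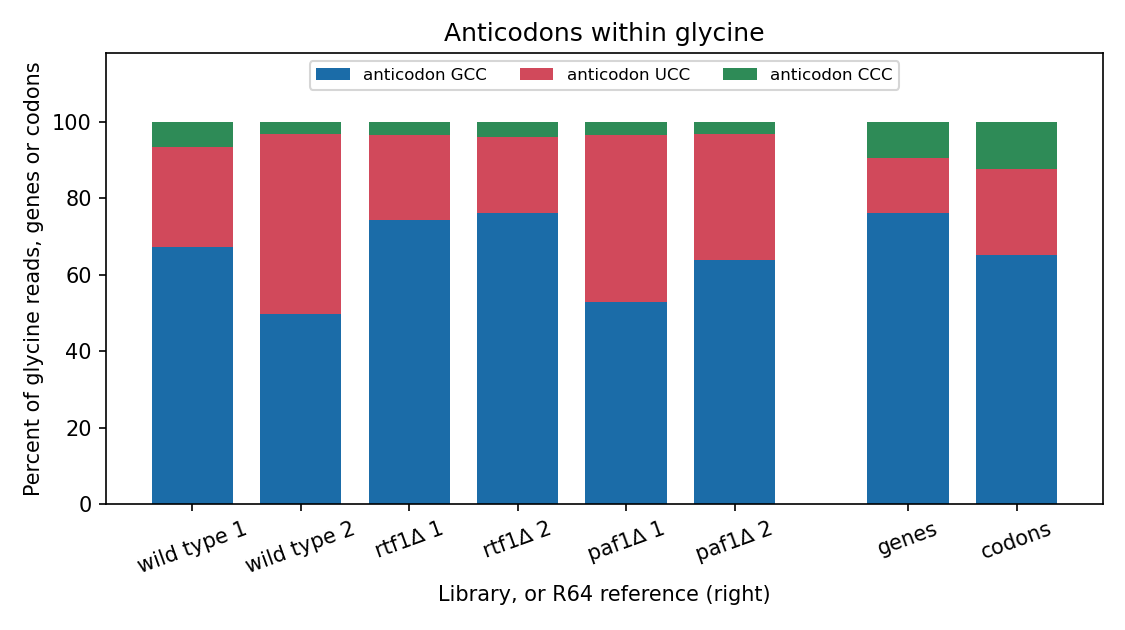
Percent of glycine reads on each anticodon in the 6 libraries (stacked bars from 0, both tRNA-Gly(CCC) sequences summed), with the percent of nuclear glycine tRNA genes and of glycine codons in R64 on the right. tRNA-Gly(UCC) takes from 19.9% to 47.1% of the reads against 14.3% of the genes.

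The replicate spread differed between glycine tRNAs and between genotypes. In wild type the tRNA-Gly(UCC) share of aligned reads was 2.48 times higher in library 2 than in library 1, and its gap of 1.81 in log2 CPM (reads relative to library size, scaled by the trimmed mean of M values, TMM) ranked 3 among the 70 sequences, whose median gap was 0.405. The tRNA-Gly(GCC) share was 1.02 times higher in library 2, and its gap in log2 CPM was 0.54, which ranked 22. In *rtf1∆* the corresponding ratios of library 2 to library 1 were 0.788 for tRNA-Gly(UCC) and 0.894 for tRNA-Gly(GCC). In *paf1∆* all 4 sequences had lower shares of aligned reads in library 2, at 0.373 to 0.600 times library 1. In log2 CPM the gaps were smaller, at -0.099 for tRNA-Gly(GCC), which ranked 67, and -0.79 for tRNA-Gly(UCC). Those of tRNA-Gly(CCC)-1 and tRNA-Gly(CCC)-2 were -0.32 and -0.68, against a median absolute gap of 0.545 over all 70 sequences. Wild type library 1 is the only library of set 1, so set and replicate cannot be told apart in wild type.

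tRNA-Gly(UCC) reads per tRNA-Gly(GCC) read, a ratio free of the scaling between libraries, were 0.391 and 0.945 in wild type, 0.296 and 0.261 in *rtf1∆* and 0.827 and 0.514 in *paf1∆*. The *rtf1∆* libraries had the lowest ratios, and the *paf1∆* ratios lay within the wild type range. The tRNA-Gly(CCC)-1 part of tRNA-Gly(CCC) reads was 34.6% (95% interval 33.0 to 36.2) and 45.6% (44.4 to 46.9) in wild type, 42.7% (40.6 to 44.7) and 41.2% (38.9 to 43.6) in *rtf1∆*, and 55.8% (55.2 to 56.5) and 61.9% (60.9 to 62.8) in *paf1∆*. tRNA-Gly(CCC)-1 was thus below tRNA-Gly(CCC)-2 in the 4 wild type and *rtf1∆* libraries and above it in both *paf1∆* libraries. Mean parts were 40.1% ± 7.82 (SD, n = 2) in wild type, 42.0% ± 1.01 (SD, n = 2) in *rtf1∆* and 58.8% ± 4.29 (SD, n = 2) in *paf1∆*, and the *paf1∆* minus wild type difference of 18.8 percentage points gave an exact two-sided permutation p of 0.333, the smallest that 2 against 2 libraries allow. The turn coincides with the longer reference sequences of *paf1∆*, whose part in it was not tested.

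**Figure D3:**
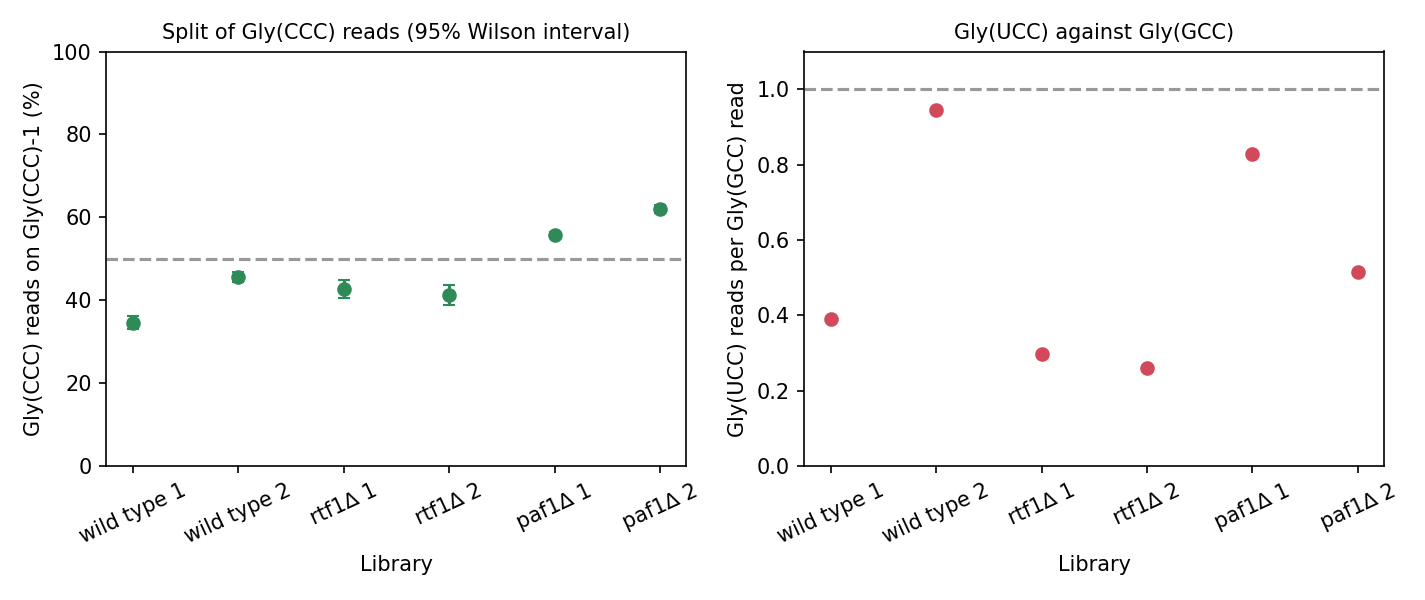
Left, percent of tRNA-Gly(CCC) reads on tRNA-Gly(CCC)-1 with 95% Wilson intervals (dashed line at equal parts); right, tRNA-Gly(UCC) reads per tRNA-Gly(GCC) read (dashed line at 1), each point 1 library. The *paf1∆* libraries lie at 55.8% and 61.9% on the left, above all others, and the *rtf1∆* libraries at 0.296 and 0.261 on the right, below all others.

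In *paf1∆* against wild type, all 4 glycine tRNAs had negative log2 fold changes, and 1 of them, tRNA-Gly(CCC)-2, fell. Over all 70 sequences, 18.6% passed the test, 10% as lower and 8.57% as higher (edgeR's quasi-likelihood test with TMM scaling and Benjamini-Hochberg adjustment over all 70 sequences, adjusted p under 0.05, two-sided). tRNA-Gly(CCC)-2 had 895 and 626 CPM in *paf1∆* and 3534 and 2706 CPM in wild type. It was 4.10-fold lower, a log2 fold change of -2.04 (standard error, SE, 0.40, adjusted p = 0.0166 by edgeR), and the groups did not overlap. The call was lost when either wild type library was left out, with log2 fold changes of -1.64 (adjusted p = 0.171 by edgeR) without library 1 and -2.22 (adjusted p = 0.212 by edgeR) without library 2, where 0 of all 70 sequences passed (11 at an unadjusted p under 0.05). It was also lost with total counts in place of TMM, where the log2 fold change was -1.9985 (SE 0.84, adjusted p = 0.0713 by edgeR).

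The other 3 glycine tRNAs did not pass the test in *paf1∆*. tRNA-Gly(CCC)-1 had 1130 and 1015 CPM in *paf1∆* and 1867 and 2271 CPM in wild type. Its log2 fold change was -0.95 (SE 0.34, adjusted p = 0.101 by edgeR). It passed with DESeq2 (adjusted p = 0.00663), which called 28 of all 70 sequences. tRNA-Gly(GCC) had 31918 and 33409 CPM in *paf1∆* and 55081 and 78948 CPM in wild type, a log2 fold change of -1.04 (SE 0.54, adjusted p = 0.219 by edgeR). For both, the *paf1∆* libraries lay below the wild type libraries, as they did for 34.3% of all 70 sequences. tRNA-Gly(UCC) had 26399 and 17161 CPM in *paf1∆* and 21517 and 74628 CPM in wild type, which overlapped, with a log2 fold change of -1.14 (SE 0.70, adjusted p = 0.281 by edgeR) that became 0.02 without wild type library 2. Its value therefore turned on that library.

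Summed over its 4 sequences, glycine had a log2 fold change of -1.10 (SE 0.56, adjusted p = 0.186 by edgeR over 22 amino acids) in *paf1∆* against wild type. It did not pass, while 31.8% of amino acid sums did. Summed tRNA-Gly(CCC) passed at a log2 fold change of -1.50 (SE 0.36, adjusted p = 0.0401 by edgeR over 43 anticodons, of which 23.3% passed) with the scaling of the unsummed table, and not when the scaling was computed after summing (-1.29, adjusted p = 0.144 by edgeR). This sum does not depend on how reads were divided between the tRNA-Gly(CCC) sequences.

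In *rtf1∆* against wild type, tRNA-Gly(UCC) passed as lower in the TMM-scaled fit by sequence, but not in several other fits. It had the lowest log2 fold change of all 70 sequences. Of the 4 glycine tRNAs 1 passed, and of all 70 sequences 5.71%, all of them lower. It had 18930 and 16448 CPM in *rtf1∆* and 19552 and 68592 CPM in wild type. The groups did not overlap, but wild type library 1 lay close to *rtf1∆* library 1. The log2 fold change was -1.32 (SE 0.42, adjusted p = 0.0403 by edgeR), 2.49-fold lower. That SE draws mostly on the spread of the other sequences. The gap of this sequence between the wild type libraries, 1.81 in log2 CPM, ranked 3 among the 70. Without wild type library 2 it was -0.14, and without wild type library 1, that is within set 2, it was -1.94. Leaving out *rtf1∆* library 1 or 2 gave -1.38 or -1.22. These fits keep 1 library in a group. The call was lost with DESeq2 (-1.37, adjusted p = 0.0990 by DESeq2), which called 2 of all 70 sequences. It was also lost with total counts, upper quartile scaling, a replicate block and all 6 libraries in 1 fit. As an anticodon sum, which holds the same counts, tRNA-Gly(UCC) had an adjusted p of 0.184 by edgeR over 43 anticodons.

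The reader of GGU and GGC lay within the wild type range in *rtf1∆*. tRNA-Gly(GCC) had 63971 and 63024 CPM in *rtf1∆*, between the 50052 and 72562 CPM of wild type, and its log2 fold change of 0.05 (SE 0.45, adjusted p = 0.948 by edgeR) turned to -0.21 with total counts. tRNA-Gly(CCC)-1 had 1293 and 1336 CPM against 1696 and 2087 CPM, a log2 fold change of -0.53 (SE 0.28, adjusted p = 0.217 by edgeR). tRNA-Gly(CCC)-2 had 1737 and 1903 CPM against 3211 and 2487 CPM, a log2 fold change of -0.65 (SE 0.28, adjusted p = 0.139 by edgeR). Both lay below wild type without overlap, as did 25.7% of all sequences, and neither passed. Without wild type library 2, tRNA-Gly(CCC)-2 had a log2 fold change of -0.82. Total counts moved the median log2 fold change of all 70 sequences by -0.31 in this comparison.

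The glycine sum had a log2 fold change of -0.39 in *rtf1∆* against wild type (SE 0.38, adjusted p = 0.545 by edgeR, where 9.09% of amino acid sums passed). It depended on which wild type library was kept, at -0.77 without library 1 and 0.18 without library 2. Leaving out a library leaves 1 library in a group, whose spread is then taken from the other group.

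The deletions were compared directly because both comparisons with wild type share the same wild type libraries. In *paf1∆* against *rtf1∆* no glycine tRNA passed edgeR's test, while 25.7% of the 70 sequences did. At an unadjusted p under 0.05 there were 2 of 4, and 32 of all 70 sequences. DESeq2 called 2 of 4, and 35 of all 70. tRNA-Gly(CCC)-2 had 908 and 566 CPM in *paf1∆* and 1619 and 1773 CPM in *rtf1∆*, a log2 fold change of -1.20 (SE 0.34, adjusted p = 0.0571 by edgeR and 0.000661 by DESeq2). tRNA-Gly(GCC) had 32394 and 30247 CPM against 59627 and 58745 CPM, a log2 fold change of -0.92 (SE 0.25, adjusted p = 0.0556 by edgeR and 4.15e-05 by DESeq2). In both sequences each *paf1∆* library lay below each *rtf1∆* library, as in 40% of all sequences.

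tRNA-Gly(UCC) was the only glycine tRNA with a positive log2 fold change in *paf1∆* against *rtf1∆*. It had 26793 and 15537 CPM in *paf1∆* and 17645 and 15331 CPM in *rtf1∆*, which overlapped, with a log2 fold change of 0.36 (SE 0.32, adjusted p = 0.408 by edgeR). This value was 0.70 without *paf1∆* library 2 and -0.06 without *paf1∆* library 1. tRNA-Gly(CCC)-1 had 1147 and 919 CPM against 1205 and 1245 CPM, a log2 fold change of -0.25 (SE 0.26, adjusted p = 0.456 by edgeR). The glycine sum had a log2 fold change of -0.53 (SE 0.22, adjusted p = 0.101 by edgeR and 0.0228 by DESeq2), where 50% of amino acid sums passed edgeR's test. The test of the difference was thus missed for all 4 in the TMM-scaled fit of these libraries. tRNA-Gly(CCC)-2 passed edgeR's test with median-of-ratios factors (adjusted p = 0.0321) and upper quartile scaling (adjusted p = 0.0146), each calling 29 of 70 sequences. It also passed with all 6 libraries in 1 TMM-scaled fit (adjusted p = 0.0312 by edgeR), which called 25 of 70. tRNA-Gly(GCC) passed with upper quartile scaling, and as an anticodon sum with TMM factors (adjusted p = 0.0332 by edgeR). As anticodon sums, tRNA-Gly(CCC) and tRNA-Gly(UCC) did not pass.

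**Figure D4:**
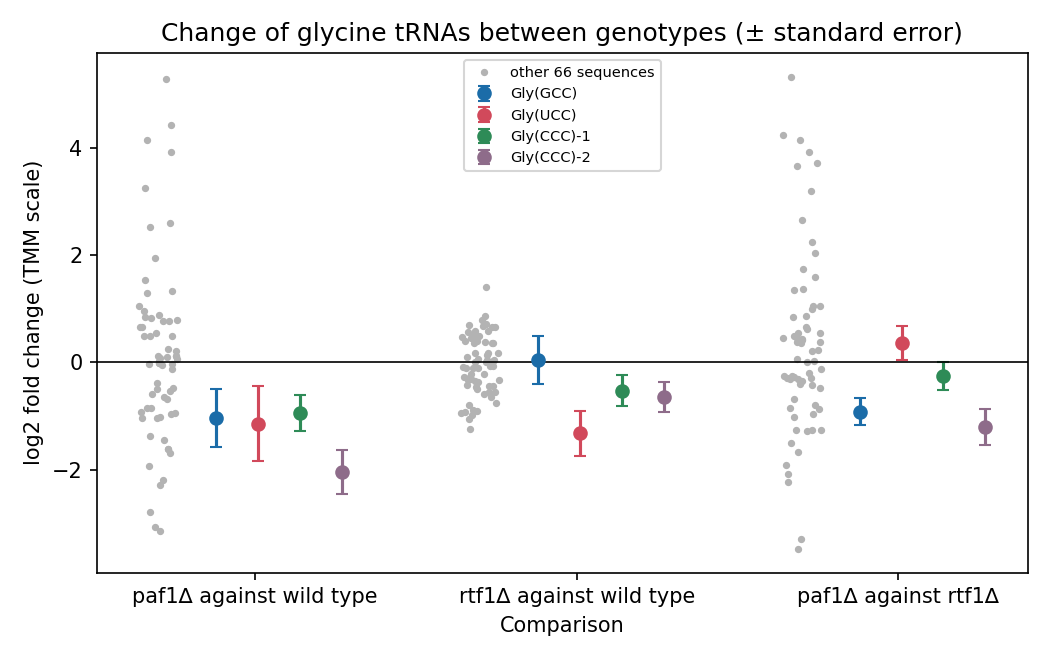
Log2 fold change of the 4 glycine tRNAs (coloured, bars are ± 1 standard error derived from edgeR's F statistic) beside the other tRNA sequences (grey) in the 3 comparisons. All 4 lie below 0 in *paf1∆* against wild type, from -2.04 to -0.95, and tRNA-Gly(UCC) at -1.32 is the lowest point in *rtf1∆* against wild type.

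Each glycine tRNA was also tested against the rest of its own amino acid, which removes the scaling between libraries. No glycine tRNA passed in any comparison by edgeR's test of usage, while 9.52%, 1.59% and 14.3% of 63 sequences passed in *paf1∆* against wild type, *rtf1∆* against wild type and *paf1∆* against *rtf1∆*. At an unadjusted p under 0.05 there was 1, tRNA-Gly(UCC) in *rtf1∆* against wild type, with a relative log2 change of -0.93 (SE 0.43, adjusted p = 0.601 by edgeR). Its relative change in *paf1∆* against *rtf1∆* was 0.89 (SE 0.27, adjusted p = 0.230 by edgeR), and in *paf1∆* against wild type -0.05 (SE 0.50, adjusted p = 0.994 by edgeR). tRNA-Gly(CCC)-2 had relative changes of -0.94, -0.26 and -0.67 in the 3 comparisons, in the order of their shares above. No other tool was run for usage.

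Other tRNA groups were set beside glycine as a description. The median log2 fold change of the 4 glycine sequences was -1.09 in *paf1∆* against wild type, -0.59 in *rtf1∆* against wild type and -0.58 in *paf1∆* against *rtf1∆*, against medians over all 70 sequences of -0.01, -0.06 and 0.05. The other amino acids read through a single box of 4 codons (alanine, proline, threonine and valine) had 18 sequences. Several tRNA-Pro(UGG) sequences among them had nearly equal counts, so these are not 18 separate values. The 18 had medians of -0.03, -0.27 and 0.39, and none of them passed in *paf1∆* against wild type. In *rtf1∆* against wild type 2 of these fell, both tRNA-Val(AAC) sequences, with log2 fold changes of -1.05 and -0.98.

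The next list held tRNAs whose wobble uridine carries a methoxycarbonylmethyl side chain, as in tRNA-Gly(UCC), whether or not the uridine is otherwise alike. These tRNAs, for Arg(UCU), Glu(UUC), Lys(UUU) and Gln(UUG), had 8 sequences with medians of 0.09, -0.45 and 0.51. None passed in *rtf1∆* against wild type by edgeR (1 at an unadjusted p under 0.05), the comparison in which tRNA-Gly(UCC) passed in the same fit. In *paf1∆* against wild type 1 rose, tRNA-Arg(UCU) with a log2 fold change of 4.43, and 1 fell, a tRNA-Glu(UUC) sequence with -3.05. The list of 13 sequences with C as the first anticodon base, like tRNA-Gly(CCC), leaves out both methionine tRNAs and tRNA-Val(CAC). Its tRNA-Leu(CAA) sequences had nearly equal counts, so these are not 13 separate values. The medians of the 13 sequences were 0.11, 0.49 and -0.19. Of these 1 rose, tRNA-Ser(CGA) with a log2 fold change of 5.27, and 1 fell, tRNA-Gln(CUG) with -3.14, in *paf1∆* against wild type. Of the 3 sequences left out, the initiator tRNA-Met(CAU) also fell there, with -2.77 (adjusted p = 0.0113 by edgeR), and the elongator tRNA-Met(CAU) and tRNA-Val(CAC) had -2.18 and -0.67. They were looked up after the list's values were seen.

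Across the 6 libraries the summed glycine level, in log2 CPM on the TMM scale, was 16.17 and 17.13 in wild type, 16.37 and 16.32 in *rtf1∆* and 15.98 and 15.61 in *paf1∆*. The tRNAs outside glycine whose levels followed it most closely were tRNA-Gln(UUG)-2 (Pearson r = 0.943), tRNA-Asp(GUC)-1 (r = 0.861) and tRNA-Gln(CUG) (r = 0.859). tRNA-Gln(UUG)-2 was at 14.24 and 15.14 in wild type, 14.22 and 14.20 in *rtf1∆* and 13.26 and 13.23 in *paf1∆*. Like glycine it was highest in wild type library 2 and lowest in *paf1∆*. These are descriptions over 6 libraries that share genotype, depth and processing.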

How the data were processed

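tRNA-HySeq libraries of 3 genotypes, 2 each, were used. The authors clipped adapters, trimmed by quality, aligned the reads in Galaxy to unique yeast tRNA sequences (the submitters' processing notes name Bowtie and SAMtools, versions not given in the sources used here) and deposited raw read counts per sequence. The row of unaligned reads was left out of library sizes (93.2% to 94.4% of reads in wild type and *rtf1∆*, 12.1% and 12.6% in *paf1∆*). *rtf1∆* libraries are numbered as in the labels; the deposited names number them the other way round.

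Counts were tested with edgeR 4.0.16 in R 4.3.3 (quasi-likelihood, TMM scaling, at least 10 counts in at least 2 of 4 libraries, which removed no sequence, Benjamini-Hochberg over 70 sequences, adjusted p under 0.05), each comparison on its own 4 libraries. Amino acid sums (22) kept the library sizes and TMM factors of the unsummed table, and usage within an amino acid was tested with diffSpliceDGE. DESeq2 1.42.0, other scalings, filters, sums, a replicate block and leaving out each library were alternatives. With 2 against 2 libraries no exact permutation p under 0.333 can arise. CPM values are set on the scale of their comparison. Scripts were tested on simulated data. Replicates differed beyond sampling noise in each genotype.

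All 4 glycine sequences are named, with the 3 other tRNAs of highest Pearson r with the glycine sum and up to 2 members of largest change from each list and comparison. The members and lists were chosen with earlier results of these data known. Sequences, genes and codons were read from the R64 reference.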

Additional observations from a re-analysis of the deposited data

How the results depend on the processing

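The number of glycine tRNAs past the test moved with the processing in each comparison. In *paf1∆* against wild type it was 1 in the report, beside 13 of all 70 sequences. It was 0 with total counts (16 of 70) and 2 with DESeq2 (28 of 70). Anticodon sums scaled after summing, an alternative chosen after seeing the data, gave 0. In *rtf1∆* against wild type it was 1 in the report, beside 4 of all 70 sequences. It was 0 with total counts (1 of 70), upper quartile (0 of 70), DESeq2 (2 of 70) and all 6 libraries in 1 fit (0 of 70). Both kinds of anticodon sum also gave 0. In *paf1∆* against *rtf1∆* it was 0 in the report, beside 18 of all 70 sequences. It was 1 with median-of-ratios size factors (29 of 70), all 6 libraries (25 of 70) and both kinds of anticodon sum. Upper quartile (29 of 70) and DESeq2 (35 of 70) gave 2. In each comparison the count also changed in some fits with a library left out, which keep 1 library in a group. With each library left out, the glycine sum ran from -1.32 to -0.54 in *paf1∆* against wild type, -0.77 to 0.18 in *rtf1∆* against wild type and -0.71 to -0.36 in *paf1∆* against *rtf1∆*, where DESeq2 gave -0.56 and passed. Counts of usage calls ran from 0 to 1 in *rtf1∆* against wild type and 0 to 3 in *paf1∆* against *rtf1∆* with each library left out. The cause of these changes was not tested.

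Replicate numbers share no stated origin, and same-numbered libraries deviated together with r = 0.100, 0.252 and 0.0116 over 70 sequences in *paf1∆* against wild type, *rtf1∆* against wild type and *paf1∆* against *rtf1∆*. With the replicate block 2, 0 and 0 glycine tRNAs passed in these comparisons. Exchanging the *rtf1∆* numbers cannot change *paf1∆* against wild type, which holds no *rtf1∆* library, and left the other comparisons at 0. The block turned the usage change of tRNA-Gly(UCC) in *paf1∆* against wild type to 0.11. It called 20, 0 and 26 of 70 sequences in place of 13, 4 and 18, and with the numbers exchanged 20, 0 and 0.

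Some directions turned. The log2 fold change of tRNA-Gly(GCC) in *rtf1∆* against wild type was -0.0042 with median-of-ratios size factors and with DESeq2, -0.21 with total counts and -0.17 to 0.34 with each library left out. With each library left out, tRNA-Gly(UCC) ran from -1.59 to 0.018 in *paf1∆* against wild type and -0.062 to 0.70 in *paf1∆* against *rtf1∆*. Usage changes ran from -0.26 to 0.41 (tRNA-Gly(CCC)-1), -0.21 to 0.21 (tRNA-Gly(GCC)) and -0.28 to 0.56 (tRNA-Gly(UCC)) in *paf1∆* against wild type, and from -0.55 to 0.12 (tRNA-Gly(CCC)-1) and -0.998 to 0.34 (tRNA-Gly(CCC)-2) in *rtf1∆* against wild type. Counting the tRNA-Gly(CCC) sequences once, as their mean, gave glycine shares of 76.8% for tRNA-Gly(GCC) in *rtf1∆*, and of 1.90% in *rtf1∆* and 1.65% in *paf1∆* for tRNA-Gly(CCC). Over all 70 sequences, calls in *paf1∆* against wild type numbered 6 higher and 7 lower, 9 and 5 with median-of-ratios factors and 15 and 13 with DESeq2. With each library left out they ran from 0 (without wild type library 2) to 17 in *paf1∆* against wild type, from 0 to 23 in *rtf1∆* against wild type and in *paf1∆* against *rtf1∆* from 11 to 47. In *paf1∆* against wild type they were 21 with upper quartile and 8 with at least 100 counts in every library.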
